A study of Homo sapiens with 4 samples.

Results

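The replication-dependent histone genes were followed in the RNA of cultured papillary thyroid carcinoma cells, the established human lines TPC-1 and B-CPAP. The genes were taken by name: protein-coding genes whose GENCODE 29 name begins with HIST1H, HIST2H, HIST3H or HIST4H (71 of the 58884 gene IDs in the deposited table), a rule that uses names only. Each line was grown in T25 flasks submerged at 37 °C or at 40 °C, with 1 library for each line and temperature, 4 libraries in all. The labels name no other agent. For the time at each temperature the treatment label gives 24 h, the growth protocol 15 min and the design text 20 min. Each line is 1 established culture and the labels name no separate cultures, so nothing here measures the spread between cultures. By name, 6 members encode linker histone H1, 17 H2A, 18 H2B, 15 H3 and 15 H4. The HIST1 cluster on chromosome 6 holds 55 of them, the HIST2 cluster on chromosome 1 holds 12, the HIST3 cluster on chromosome 1 holds 3, and HIST4H4 stands alone on chromosome 12.

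Core histones H2A, H2B, H3 and H4 form the protein spool of the nucleosome, and H1 binds the DNA that enters and leaves it. Cells make the RNAs of these genes mainly while DNA is copied. Most of these RNAs have no poly(A) tail: they end just past a short hairpin, the stem-loop, which SLBP (stem-loop binding protein) holds and the U7 small nuclear ribonucleoprotein helps to cut. Some of the genes also give longer, polyadenylated RNAs that end at an ordinary poly(A) signal. The TruSeq RNA kit named in the labels captures RNA by its poly(A) tail, so the values below count polyadenylated histone RNA, a minor form, and any tailless RNA carried along. How much of either form was present was not measured.

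To show the stem-loop that marks these RNAs, an example of each of the 5 cores found is given with 5 bases on either side. Each is written 5′ to 3′ on the gene's strand, from GENCODE 29 transcripts on GRCh38, with the stem-loop core in capitals. The HIST1H2AC site is at chr6:26124664-26124689 (+), HIST1H2BD at chr6:26158582-26158607 (+), HIST1H3E at chr6:26225591-26225616 (+), HIST1H4I at chr6:27139649-27139674 (+) and HIST4H4 at chr12:14770719-14770744 (-).
HIST1H2AC: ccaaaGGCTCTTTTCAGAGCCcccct
HIST1H2BD: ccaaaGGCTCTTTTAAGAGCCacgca
HIST1H3E: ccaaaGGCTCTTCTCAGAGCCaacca
HIST1H4I: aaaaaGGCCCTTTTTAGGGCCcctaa
HIST4H4: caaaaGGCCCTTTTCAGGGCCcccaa
The search took the letters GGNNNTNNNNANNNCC on the transcript's strand, with the 6 bases at each end pairing perfectly around a loop of 4. A stem-loop was found in 31 of the 36 members whose gene model holds a 3′ untranslated end, 22 to 67 bases after the stop codon. The models of HIST1H1E and HIST1H1T end inside the letters of a stem-loop, so the search could not find a whole core in them. The core shown for HIST1H2AC was found in 17 members (6 H2A, 8 H2B, 3 H3), that of HIST1H2BD in 5 (3 H2B, 2 H3) and that of HIST1H3E in 1. The cores of HIST4H4, in 5 members, and HIST1H4I, in 3, were found in H4 genes. Among transcripts with at least 100 bases after the stop, 26 of 29 member genes (89.7%) held the motif in those bases, against 43 of all 18266 genes (0.235%). Of the 17 that are not members, 1 is H2AFX, which encodes the variant H2A.X.

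A second signal was found in many of the longer models. The sites shown are the poly(A) signals nearest to the ends of 4 genes described below, with the signal in capitals, also from GENCODE 29 on GRCh38. They lie at chr6:26139076-26139102 (+) for HIST1H2AC, chr6:26171313-26171342 (+) for HIST1H2BD, chr6:27125900-27125929 (-) for HIST1H2BJ and chr1:149884465-149884494 (-) for HIST2H2BE.
HIST1H2AC: ctggcatgaggtAATAAAaggtaatgc
HIST1H2BD: aaagttataattAATAAAatctgcggagaa
HIST1H2BJ: tctgaataaatgAATAAAgtaatattcctc
HIST2H2BE: gctattgttattAATAAAgttaccaattaa
In HIST1H2AC the AATAAA begins 1158 bases after the stop codon and in HIST2H2BE 1777 bases after it, far beyond the stem-loops of both genes at 43 and 56 bases. Of the 25 members whose model has a 3′ end longer than 150 bases, 16 held AATAAA within the last 50 bases of a transcript and 23 held a stem-loop. AATAAA also stood there in the shorter models of HIST1H4J, HIST2H2AA3 and HIST2H2AA4, and its share over all genes was not counted. A further 11 models end within 150 bases of the stop, and 35 hold coding bases only, among them those of HIST1H1C and HIST1H2BK. Reads on untranslated ends beyond these 35 models are not part of their values.

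Histone RNA was a small part of each library. The 71 members together stood at 425.1 TPM in TPC-1 at 37 °C, 395.8 at 40 °C, 566.7 in B-CPAP at 37 °C and 564.3 at 40 °C, where TPM is the level of a gene per unit of its length, scaled to a library total of 1000000. That was 0.0396 to 0.0567% of the library. Read counts were recovered by multiplying TPM by gene length, which gave whole reads in all 4 libraries for 70 of the 71 members. The members held 1863, 1716, 2987 and 2809 reads in that order of libraries. Reads fell on 58 members in at least 1 library and on 43 in all 4. The remaining 13 were at 0 throughout, and 36 members stayed under 10 reads in every library. With no reads, a gene of 500 bases could still stand at up to 0.804 to 1.04 TPM (3 reads), depending on the library. Of the 13 members at 0, 6 share over 80% of their exon bases or over 95% of their 50-base stretches with another gene. The other 7 were HIST1H2AA, HIST1H2BA, HIST1H3I, HIST1H4G, HIST1H4L, HIST3H2A and HIST3H2BB.

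H2B and H1 RNA made up most of the total. H2B summed to 163.9, 144.6, 234.9 and 241.9 TPM in TPC-1 at 37 and 40 °C and B-CPAP at 37 and 40 °C, an order kept for every set of 4 values below. H1 summed to 120.7, 126.4, 179.7 and 162.5 TPM. H4 stood at 71.9, 59.8, 69.5 and 71.3 TPM. These sums put H2B first and H1 second in each library, and H2B and H1 were each higher in both B-CPAP libraries than in both of TPC-1. H2A came to 49.6, 50.6, 64.2 and 69.0 TPM. H3 was the lowest class at 19.2, 14.4, 18.4 and 19.5 TPM, although it has 15 members. H4 lay above H2A in each library, by less in B-CPAP.

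**Figure D1:**
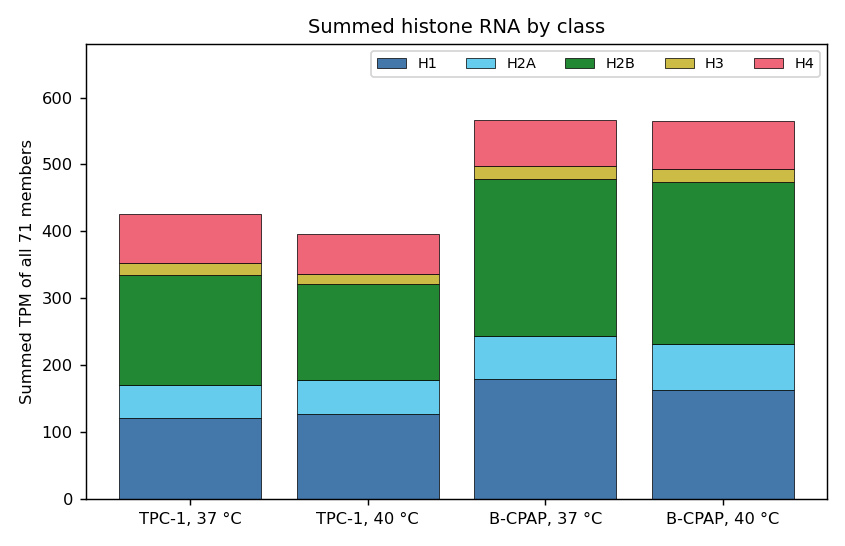
Summed TPM of the 71 histone genes in each of the 4 libraries, stacked by class (H1 at the base, then H2A, H2B, H3 and H4), 1 library a bar and no error bars. The bars of B-CPAP reach 566.7 and 564.3 TPM and those of TPC-1 425.1 and 395.8, with H2B and H1 the tallest segments in each.

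A few genes carried these sums. HIST1H2BK, HIST1H1C and HIST1H4C, the 3 highest members by mean, held 59.7, 55.8, 68.1 and 64.0% of all member TPM. Only 12 members had a mean of at least 5 TPM and 7 a mean of at least 10. HIST1 genes held 94.1 to 97.2% of member TPM and HIST2 genes 2.603 to 5.608%.

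Among linker histones HIST1H1C (H1-2, chr6:26055787-26056428) stood apart. It measured 112.0, 109.2, 169.9 and 146.3 TPM, and both B-CPAP libraries lay above both TPC-1 libraries. HIST1H1E (H1-4) measured 5.92, 8.49, 4.09 and 5.88 TPM, with TPC-1 at 40 °C the highest. HIST1H1B (H1-5) stood at 1.46, 4.83, 1.77 and 2.52 TPM and HIST1H1D (H1-3) at 1.24, 2.86, 1.41 and 3.005 TPM, each higher at 40 °C in both lines. HIST1H1A (H1-1) measured 0, 0.534, 2.48 and 4.85 TPM, higher in B-CPAP. Those 4 values rest on 0, 2, 12 and 22 reads.

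HIST1H2AC (H2AC6, chr6:26124145-26139116) led the H2A genes. It stood at 18.5, 17.8, 37.8 and 39.9 TPM on 172 to 470 reads, with both B-CPAP libraries above TPC-1. HIST2H2AC (H2AC20) measured 10.6, 9.76, 9.97 and 6.96 TPM. About 30.5% of its 50-base stretches occur in another gene, and HIST2H2AA3 is among those that share the most. HIST1H2AE (H2AC8) measured 8.45, 5.78, 6.32 and 8.14 TPM, and HIST1H2AG (H2AC11) 3.75, 6.46, 2.98 and 2.92 TPM. HIST1H2AL (H2AC16) was at 5.05, 1.32, 1.36 and 2.91 TPM on 3 to 12 reads. The lines overlapped in these genes except in HIST1H2AG, where both B-CPAP libraries were lower.

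HIST1H2BK (H2BC12, chr6:27146418-27146798) was the highest member by mean. It measured 96.3, 82.7, 180.4 and 179.7 TPM on 182 to 513 reads, so both B-CPAP libraries lay far above TPC-1. About 74.1% of its 50-base stretches also occur in another gene, with H2BFS sharing the most, so its level is uncertain. H2BFS itself, listed under 2 IDs, was at 0 to 0.360 TPM, at most 1 read in any library. HIST1H2BJ (H2BC11, chr6:27125897-27132750) stood at 4.53, 3.64, 19.6 and 18.4 TPM on 26, 20, 139 and 122 reads. HIST1H2BD (H2BC5, chr6:26158146-26171349) went the other way, at 25.4, 22.5, 9.39 and 12.3 TPM. HIST1H2BC (H2BC4, chr6:26114873-26123926) was also higher in TPC-1, at 11.7, 8.51, 3.70 and 6.17 TPM. HIST2H2BE (H2BC21, chr1:149884459-149886652) was close to even, at 7.39, 6.86, 6.41 and 5.80 TPM.

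H3 genes were low throughout. HIST1H3H (H3C10) measured 3.88, 4.34, 4.66 and 3.70 TPM and HIST1H3G (H3C8) 1.58, 1.58, 1.61 and 1.60 TPM. For HIST1H3G, on 22 to 29 reads, the B-CPAP over TPC-1 ratio was 1.02 (95% counting interval 0.571 to 1.85) at 37 °C and 1.01 (0.556 to 1.87) at 40 °C. HIST1H3C stood at 3.22, 1.68, 3.26 and 8.35 TPM, highest in B-CPAP at 40 °C. HIST1H3A (H3C1) measured 2.82, 2.95, 2.61 and 1.74 TPM. HIST1H3B measured 4.83, 0.421, 2.61 and 1.39 TPM, the second value on a single read. H3 proteins are also made from genes outside this family: H3F3A and H3F3B, which encode the variant H3.3 and carry ordinary poly(A) tails, stood at 99.2 to 211.0 and 159.7 to 252.4 TPM.

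Among H4 genes, most of which encode the same protein, HIST1H4C (H4C3, chr6:26103876-26104310) was highest. It measured 45.6, 29.05, 35.7 and 34.8 TPM on 120, 73, 116 and 106 reads, with TPC-1 at 37 °C above the other libraries. HIST1H4I (H4C9, chr6:27138588-27139881) stood at 10.5, 9.63, 20.2 and 19.6 TPM, both B-CPAP libraries higher. HIST1H4J (H4C11) measured 5.76, 1.86, 4.67 and 3.83 TPM and HIST1H4A (H4C1) 1.59, 4.99, 2.58 and 4.58 TPM. HIST1H4K (H4C12) stood at 3.71 and 3.88 TPM in TPC-1, 7 reads in each library, and at 0 in both B-CPAP libraries. Every 50-base stretch of HIST1H4K also occurs elsewhere, with HIST1H4J sharing the most, so the split between those genes is uncertain. HIST1H4J and HIST1H4K summed to 9.47, 5.74, 4.67 and 3.83 TPM.

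**Figure D2:**
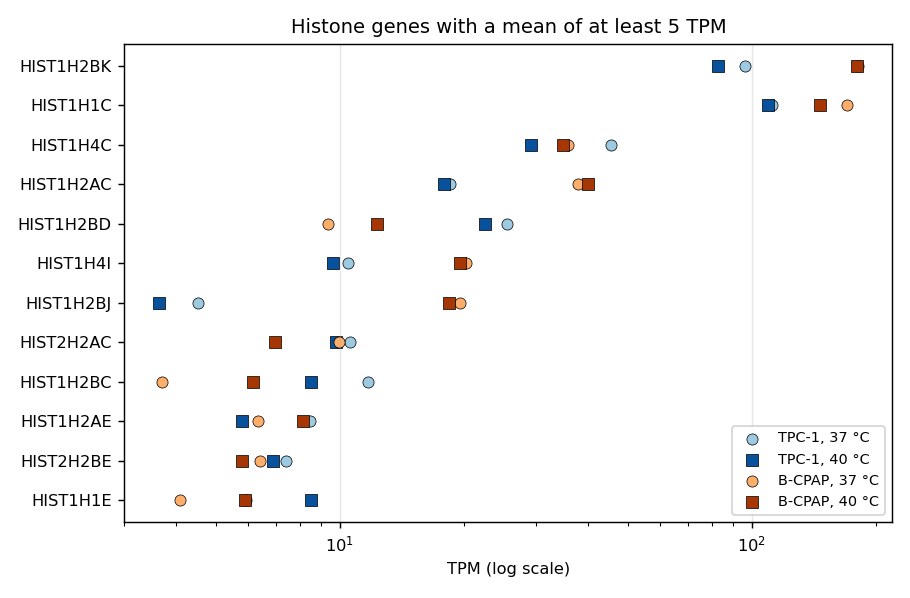
TPM (log scale) of the 12 histone genes with a mean of at least 5 TPM, ordered by mean, 1 point for each library, circles for 37 °C and squares for 40 °C. HIST1H2BK, HIST1H1C, HIST1H2AC, HIST1H4I and HIST1H2BJ have both B-CPAP points to the right of both TPC-1 points, and HIST1H2BD and HIST1H2BC have them to the left.

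The HIST3 and HIST4 genes were close to the limit of detection. HIST3H3 had 1 read in each TPC-1 library (0.344 and 0.360 TPM) and none in B-CPAP, while HIST3H2A and HIST3H2BB had none. HIST4H4 (chr12:14767999-14771131) stood at 0.128, 0.671, 0.624 and 1.33 TPM, from 2, 10, 12 and 24 reads. Its ratio of 40 to 37 °C was 5.23 in TPC-1 (95% interval 1.12 to 49.1) and 2.13 in B-CPAP (1.03 to 4.68). Here and below such intervals are exact Clopper-Pearson intervals from the reads of 2 libraries and cover counting error only. Among the 58 members with reads, only HIST4H4 (1.72%) had an interval that excluded 1 in both lines. Of all 29613 genes with reads, 14.9% did. Of those with a mean under 1 TPM, as HIST4H4 has, 0.279% did. That last share is not matched to the 58 members, 40 of which had a mean of at least 1 TPM. The mean of HIST4H4 was too low for the fits described next.

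Whether histone RNA differed between the lines was asked over both temperatures. Summed over all members, TPM was higher in B-CPAP, 1.33-fold at 37 °C and 1.43-fold at 40 °C. HIST1H2BK, HIST1H1C and HIST1H4C together were 1.52-fold and 1.63-fold higher, and all other members together 1.055-fold and 1.16-fold. HIST1H4C alone had ratios of 0.783 and 1.20, with counting intervals that included 1. Over the 40 members with a mean of at least 1 TPM, the median difference on log2(TPM + 1) was -0.03 at 37 °C and 0.03 at 40 °C. Of them, 20 were higher in B-CPAP at 37 °C and 21 at 40 °C. Of the 40 members with a mean of at least 1 TPM, 11 were called by limma with temperature as a block (Benjamini-Hochberg adjusted p under 0.05 over 14912 genes), 7 higher in B-CPAP and 4 lower. That is 27.5% of the members, where 62.7% of all genes tested were called, 29.9% higher and 32.8% lower. Many of the tested members rest on few reads. Of the 16 members with at least 20 reads in every library 7 were called, and of the other 24 members 4. Fitted on protein-coding genes alone, limma called 18 members, 11 higher and 7 lower, where 72.9% of genes were called, 34.0% higher and 38.9% lower. Left with 3 libraries and no block, limma called 4 members without TPC-1 at 37 °C (20.2% of all genes), 2 without TPC-1 at 40 °C (19.5%), 4 without B-CPAP at 37 °C (34.2%) and 8 without B-CPAP at 40 °C (38.4%). On log2(TPM + 1), 13 members were 2-fold or more apart between the lines at 37 °C, 6 higher in B-CPAP and 7 lower (9 and 5 with each library centred on its median), against 35.8% of all genes (16.6% and 19.3%). At 40 °C it was 10 members, 5 each way, against 34.3% (16.6% and 17.7%).

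On log2(TPM + 1) HIST1H2BJ had the largest difference of the genes called higher in B-CPAP. It was 1.98 higher on that scale (SE 0.14, limma adjusted p 0.000361), and the TPM ratio was 4.33 (95% interval 2.84 to 6.87) at 37 °C and 5.04 (3.12 to 8.54) at 40 °C. HIST1H2BK was 1.0045 higher on that scale (SE 0.09, limma adjusted p 0.000656), a ratio of 1.87 and 2.17. HIST1H2AC was 1.05 higher (SE 0.11, limma adjusted p 0.00107), with ratios of 2.04 and 2.24. HIST1H4I was 0.92 higher (SE 0.12, limma adjusted p 0.00247), a ratio of 1.93 and 2.03. For these genes each interval excluded 1 at both temperatures. The counting interval excluded 1 for 13 tested members at 37 °C, 8 above and 5 below, against 77.3% of all genes (35.3% and 41.9%). At 40 °C it did so for 11, 7 above and 4 below, against 77.1% (37.9% and 39.2%).

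The remaining genes called higher in B-CPAP were HIST1H1C, HIST1H1A and HIST1H2AH. HIST1H1C differed by 0.51 on log2(TPM + 1) (SE 0.09, limma adjusted p 0.00519) and HIST1H1A by 1.87 (SE 0.24, limma adjusted p 0.00195). In TPM, HIST1H1A was at 0 in TPC-1 against 2.48 in B-CPAP at 37 °C, and its ratio at 40 °C was 9.08 (2.23 to 79.7), above that of HIST1H2BJ but from 2 and 22 reads. HIST1H2AH (H2AC12) differed by 0.83 (SE 0.26, limma adjusted p 0.0378), but it had 0 and 4 reads in TPC-1 and 3 and 9 in B-CPAP, and its intervals included 1.

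Both HIST1H2BD and HIST1H2BC were lower in B-CPAP. HIST1H2BD differed by -1.08 (SE 0.17, limma adjusted p 0.00391), a TPM ratio of 0.369 (0.268 to 0.503) at 37 °C and 0.548 (0.404 to 0.740) at 40 °C. HIST1H2BC differed by -0.92 (SE 0.27, limma adjusted p 0.0339), with a ratio of 0.316 (0.186 to 0.519) at 37 °C. At 40 °C its ratio of 0.725 had an interval of 0.450 to 1.16, which included 1. HIST1H4K differed by -2.26 (limma adjusted p 0.00114) and was at 0 in both B-CPAP libraries. The counting interval of its TPM ratio ran up to 0.562 at 37 °C and 0.573 at 40 °C. However, reads of HIST1H4K cannot be told from those of HIST1H4J. HIST1H4B (H4C2), at 1.13, 3.16, 0 and 0.326 TPM, differed by -1.37 (limma adjusted p 0.0107). Both H4 genes rest on at most 8 reads in a library.

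**Figure D3:**
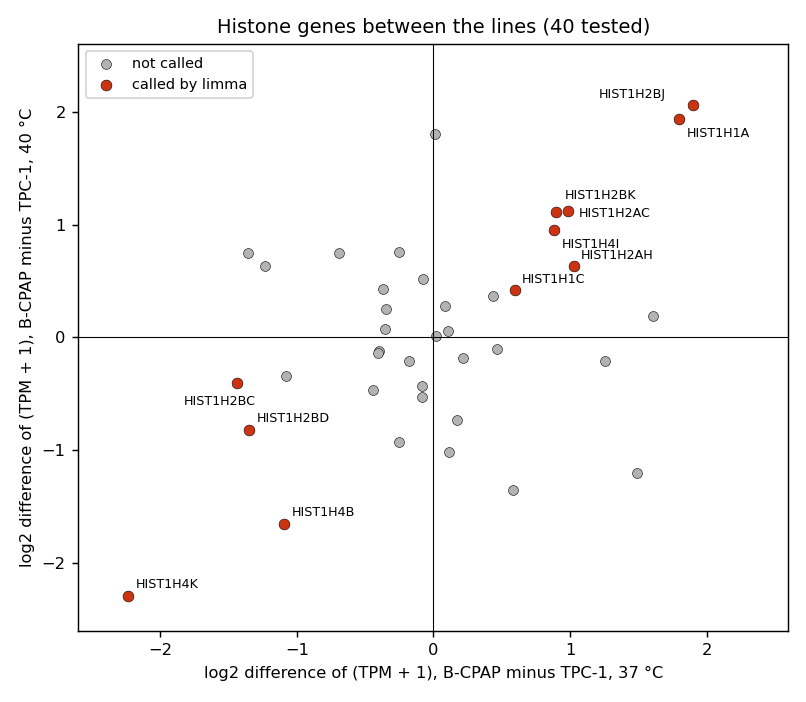
Difference between the lines, B-CPAP minus TPC-1 on log2(TPM + 1), at 37 °C (horizontal) and 40 °C (vertical) for the 40 tested histone genes, with the 11 called by limma in red. The called genes lie in the upper right (7) and lower left (4) quadrants. Some of the others also lie far from 0, as HIST1H2BL (1.61 at 37 °C), HIST1H3C (1.80 at 40 °C) and HIST2H3D (1.49 at 37 °C and -1.20 at 40 °C).

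The members were next grouped by position. Split at gaps over 300000 bases, the HIST1 cluster falls into a block of 34 members (chr6:25726132-26285638), a block of 5 (chr6:27125897-27147515) and a block of 16 (chr6:27807444-27893843). In the block of 5 members, all tested, HIST1H2BJ, HIST1H4I, HIST1H2BK and HIST1H2AH were called higher in B-CPAP. HIST1H2AG, the fifth, differed by -0.59 (SE 0.23, limma adjusted p 0.0756). The block of 5 summed to 115.1, 104.2, 224.3 and 223.9 TPM, a B-CPAP over TPC-1 ratio of 1.95 and 2.15. The block of 34 had ratios of 1.14 and 1.25, with 3 of its 22 tested members called higher and 3 lower. Its sums lean on HIST1H1C, which at 37 °C held 112.0 of 261.7 TPM in TPC-1 and 169.9 of 297.9 TPM in B-CPAP. In the block of 16 the ratios were 0.828 and 0.848, and of 10 tested members HIST1H4K was the single call. Of all genes tested, 29.9% were called higher and 32.8% lower. HIST2 genes summed to 21.3, 22.2, 22.0 and 14.7 TPM, and none of their 3 tested members was called.

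Neighbouring genes did not always go together. Of the H2A and H2B genes, 11 pairs stand head to head with their starts 219 to 331 bases apart. HIST1H2AC and HIST1H2BC, 219 bases apart, differed between the lines in opposite directions. HIST1H2AG and HIST1H2BJ, 292 bases apart, stood at similar levels in TPC-1 (3.75 and 4.53 TPM at 37 °C), and in B-CPAP HIST1H2BJ was at 19.6 and HIST1H2AG at 2.98 TPM. Of HIST1H2AH and HIST1H2BK, 331 bases apart, the H2B gene stood at 82.7 TPM or more and the H2A gene at 3.32 TPM or less in every library. HIST2H2AC and HIST2H2BE, 323 bases apart, had like levels throughout.

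The promoters of HIST1H2BJ and HIST1H2BK, the H2B genes called higher in B-CPAP, show the letters that such promoters share. Each runs from 250 bases before to 50 after the RefSeq start on GRCh38.p14, on the minus strand of chr6:27132746-27133045 and chr6:27146809-27147108. Capitals mark the octamer ATTTGCAT, the TATA motif TATAAA and the CCAAT motif, each searched on both strands, so that a reverse match reads ATGCAAAT, TTTATA or ATTGG. Matches of TATAAA on opposite strands can overlap.
HIST1H2BJ: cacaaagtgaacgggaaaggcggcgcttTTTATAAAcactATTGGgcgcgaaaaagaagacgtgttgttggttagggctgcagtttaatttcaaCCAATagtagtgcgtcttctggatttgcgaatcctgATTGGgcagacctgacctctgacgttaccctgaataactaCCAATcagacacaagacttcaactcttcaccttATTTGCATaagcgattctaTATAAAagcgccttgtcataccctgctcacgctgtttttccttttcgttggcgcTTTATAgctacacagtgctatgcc
HIST1H2BK: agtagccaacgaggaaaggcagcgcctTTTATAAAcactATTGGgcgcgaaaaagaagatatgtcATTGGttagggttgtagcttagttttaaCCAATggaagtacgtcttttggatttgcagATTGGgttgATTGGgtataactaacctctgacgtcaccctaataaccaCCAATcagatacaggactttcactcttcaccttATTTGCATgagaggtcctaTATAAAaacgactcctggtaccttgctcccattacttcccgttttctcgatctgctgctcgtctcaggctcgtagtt
RefSeq promoters were matched for 61 members. The octamer was found in 14 of 18 H2B promoters (77.8%) and 11 of 14 H2A promoters (78.6%), against 1.77% of all 35116 promoters of that length. It was found in 1 of 10 H3 promoters and in none of the 6 H1 and 13 H4 promoters. The H3 match is that of HIST1H3D, whose RefSeq window (chr6:26199244-26199543) is the same stretch as that of HIST1H2AD, an H2A gene. TATAAA was found in 40 of the 61 (65.6%, against 11.5% of all promoters). CCAAT was found in 51 (83.6%, against 34.6%), but in 3 of 13 for H4. Both promoters shown hold all 3 motifs, and so does that of HIST1H2AG, which was not called. The HIST1H2AG window (chr6:27132793-27133092) covers most of the HIST1H2BJ window on the opposite strand, so its matches are largely the same bases. Windows of other head-to-head H2A and H2B genes overlap too, so the H2A and H2B octamer counts are not fully separate.

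Between 37 and 40 °C the intervals of the total included no change in either line. Counting each read equally, all members at 40 °C relative to 37 °C stood at 0.964 in TPC-1 (95% interval 0.903 to 1.03) and 1.003 in B-CPAP (0.952 to 1.06). The 3 highest genes together were lower at 40 °C in both lines, at 0.889 (0.800 to 0.988) in TPC-1 and 0.918 (0.850 to 0.991) in B-CPAP. Taken singly, the interval excluded 1 only for HIST1H4C in TPC-1 (0.637) and only for HIST1H1C in B-CPAP (0.861), so no gene of the 3 did so in both lines. All other members together stood at 1.02 (0.934 to 1.11) and 1.08 (1.01 to 1.16). With 1 library at each temperature, these intervals compare libraries and carry no replicate check.

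No member was called between temperatures over both lines by limma with the line as a block, out of 40 (0 of 14912 genes, 0.00%). Unadjusted, 10 of the 40 members and 2905 of all genes had p under 0.05, and the smallest adjusted p among the members was 0.218. The spread in that fit is how far the lines disagree, with 1 residual degree of freedom per gene. Fitted on protein-coding genes alone, limma called 11 members, 8 higher and 3 lower at 40 °C (27.5%, against 11.4% of 11824 genes, 7.44% higher and 3.97% lower). The call of 0 therefore depends on which genes share the fit. None of the 11 had over 22 reads in any library. In TPC-1 the intervals of 3 of them excluded 1, and in B-CPAP those of 0.

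Of the 11, HIST1H2AH had the smallest adjusted p in the protein-coding fit (0.000276). It stood at 0, 1.79, 1.04 and 3.32 TPM, which is 0, 4, 3 and 9 reads. HIST1H2AJ (H2AC14), on 0, 8, 4 and 8 reads, was next (0.00120), and 83.7% of its 50-base stretches occur in another gene, with HIST1H2AI sharing the most. HIST1H2BI, HIST1H4A, HIST1H1D, HIST1H1A, HIST1H4B and HIST1H1B were the other genes called higher at 40 °C. HIST1H3B, HIST1H2BB and HIST1H4J were called lower. These names come from an alternative fit and were taken after its values were seen.

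Of the 6 H1 genes 5 were tested. HIST1H1C, the highest, had a 40 to 37 °C ratio of 0.975 (0.849 to 1.12) in TPC-1 and 0.861 (0.776 to 0.955) in B-CPAP. HIST1H1E had ratios of 1.43 and 1.44, HIST1H1D of 2.30 and 2.13, and HIST1H1B of 3.32 (1.27 to 10.1) and 1.42. HIST1H1A was also higher at 40 °C in both lines. Apart from HIST1H1B in TPC-1, the intervals of these 4 genes included 1. HIST1H1T, the H1 gene not tested, had 2 reads in TPC-1 at 40 °C (0.482 TPM) and none in the other libraries.

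Within a line, 2-fold differences on log2(TPM + 1) were counted. TPC-1 had 9 of 40 such members, 6 higher at 40 °C and 3 lower (22.5%, against 3.48% of all genes, 2.25% higher and 1.23% lower). Among protein-coding genes alone, as all members are, it was 18 of 11824 genes (0.152%, 0.0846% higher and 0.0677% lower), these 9 members included. HIST1H2AJ, HIST1H4D, HIST1H2AH, HIST1H1B, HIST1H4A and HIST2H3D were higher, and HIST1H3B, HIST1H2AL and HIST1H4J lower. In B-CPAP it was 5 of 40, 4 higher and 1 lower, or 2 and 2 with each library centred on its median (12.5%, against 3.90%, 2.78% higher and 1.13% lower). Among protein-coding genes alone the share in B-CPAP was 1.16% (1.13% higher and 0.0254% lower). HIST1H2BO, HIST1H2BI, HIST1H3C and HIST1H2AH were higher, and HIST2H3D lower. None of these 12 genes had over 24 reads in a library of the comparison that named it. Among the 12 members with a mean of at least 5 TPM none was 2-fold apart in either line.

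The genes behind those counts had few reads. HIST1H3B in TPC-1 had 12 reads at 37 °C and 1 at 40 °C, a ratio of 0.0872 (0.00204 to 0.590). HIST1H3C in B-CPAP had 10 and 24 reads, a ratio of 2.56 (1.18 to 5.998), and in TPC-1 8 and 4 reads. HIST2H3D had 1 and 5 reads in TPC-1 and 9 and 1 in B-CPAP, so its differences point in opposite directions. About 80.4% of its 50-base stretches occur in another gene, with HIST2H3DP1 sharing the most, so its level is uncertain. HIST1H2BO in B-CPAP had 1 and 9 reads, and HIST1H4D in TPC-1 had 1 and 7. The intervals of 4 of the 9 in TPC-1 and 3 of the 5 in B-CPAP excluded 1.

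**Figure D4:**
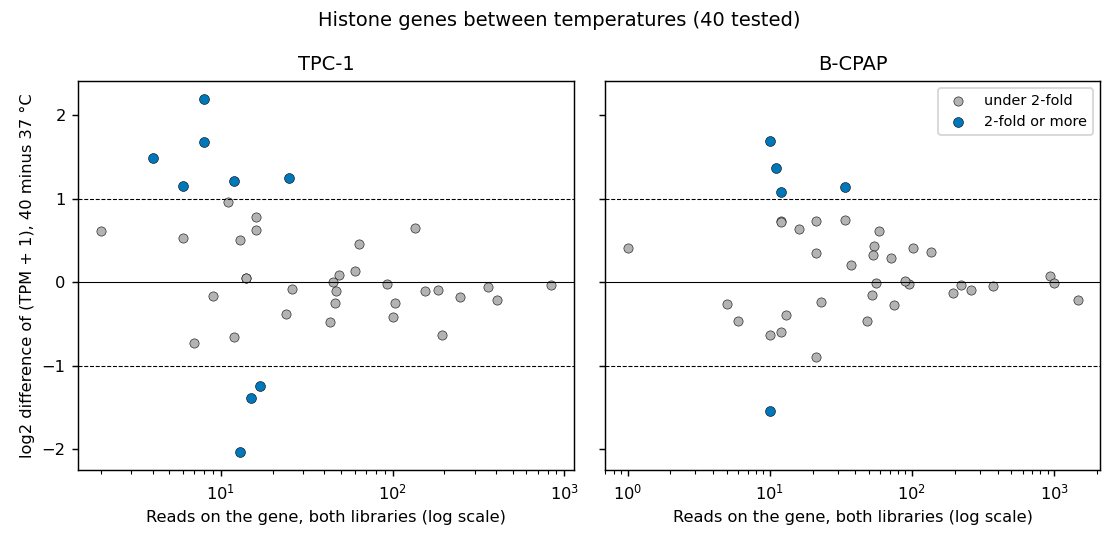
Difference between temperatures, 40 minus 37 °C on log2(TPM + 1), for the 40 tested histone genes in TPC-1 (left) and B-CPAP (right), against the reads on the gene in both libraries of that line (log scale). Dashed lines mark 2-fold; the blue genes past them, 9 in TPC-1 and 5 in B-CPAP, all lie at the low end of the read axis.

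Members with more reads stayed closer to even. For the 16 members with at least 20 reads in every library the 40 to 37 °C ratio lay between 0.637 and 1.72 in TPC-1 and between 0.794 and 1.67 in B-CPAP. In TPC-1 11 of them were lower at 40 °C, and in B-CPAP 9 were. HIST1H4C gave the lowest value, 0.637 in TPC-1 (0.469 to 0.859), and in B-CPAP its ratio was 0.975 (0.742 to 1.28). HIST1H2AG gave the highest, 1.72 in TPC-1 (1.20 to 2.49), against 0.981 (0.643 to 1.49) in B-CPAP. Over all 40 tested members the median differences were -0.03 (TPC-1) and 0.01 (B-CPAP), beside 0.03 and 0.09 for all genes tested. In both lines alike 10 members were higher at 40 °C and 11 lower, and 18 differed in direction.

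Counting intervals of the 40 to 37 °C ratio excluded 1 for 6 tested members in TPC-1 (15%, against 37.6% of all genes, 21.5% above and 16.1% below) and for 4 in B-CPAP (10%, against 58.2%, 36.4% above and 21.8% below). In TPC-1 HIST1H1B, HIST1H2AG and HIST1H2AJ were above 1 and HIST1H2AL, HIST1H3B and HIST1H4C below. In B-CPAP HIST1H2BO and HIST1H3C were above, and HIST1H1C and HIST2H3D below. No tested member was on this list in both lines.

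**Figure D5:**
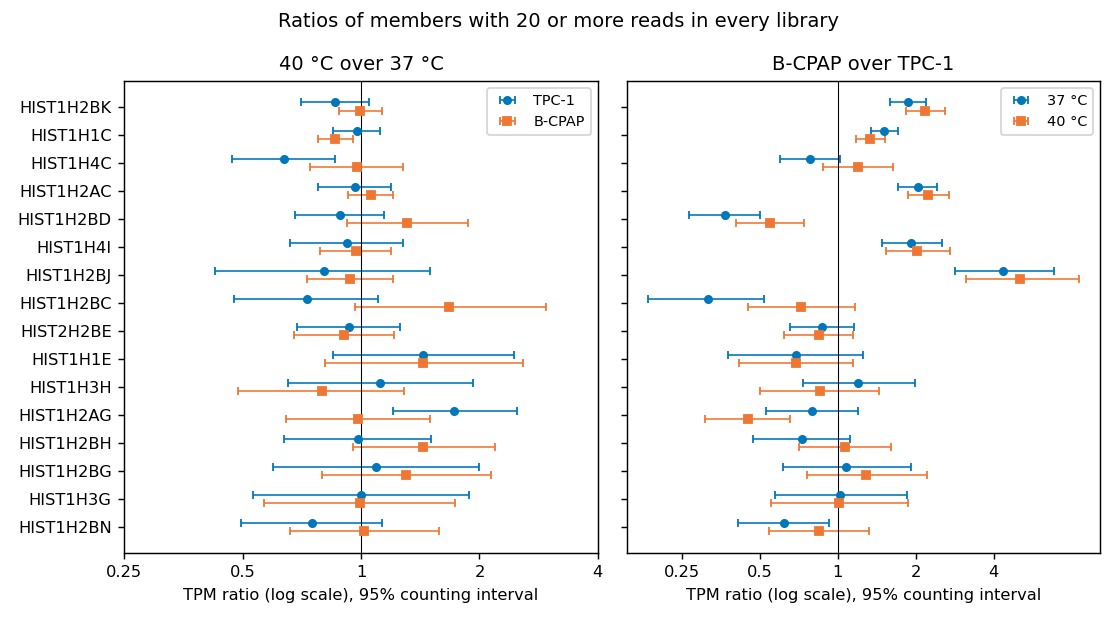
TPM ratios with exact 95% counting intervals (log scale) for the 16 histone genes with at least 20 reads in every library, 40 over 37 °C in each line (left) and B-CPAP over TPC-1 at each temperature (right). Most intervals on the left include 1, except those of HIST1H4C and HIST1H2AG for TPC-1 and HIST1H1C for B-CPAP. On the right HIST1H2BJ reaches 4.33 and 5.04.

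The form of the gene model was a further way to divide the members. Those with coding bases only summed to 253.0, 245.9, 389.4 and 382.3 TPM, those with long ends to 101.7, 96.5, 119.8 and 126.4 TPM and those with short ends to 70.4, 53.4, 57.5 and 55.6 TPM. B-CPAP over TPC-1 was thus 1.54 and 1.55 for coding-only models, 1.18 and 1.31 for long ends and 0.817 and 1.04 for short ends. HIST1H2BK and HIST1H1C make up most of the first sum and HIST1H4C of the third.

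Genes of histone RNA processing were read beside the members. SLBP stood at 119.2, 140.9, 125.6 and 149.8 TPM, higher at 40 °C in both lines, with ratios of 1.18 and 1.19. NPAT, the activator of histone gene transcription, measured 4.63, 6.67, 4.36 and 7.57 TPM, and CASP8AP2, also needed for histone expression, 3.87, 4.51, 2.26 and 5.46 TPM. NCBP2, part of the cap-binding complex, had ratios of 1.18 and 1.495. The TPM ratio of CASP8AP2 was 1.17 in TPC-1 and 2.41 (95% interval 1.97 to 2.97) in B-CPAP, under 2-fold on log2(TPM + 1), where no gene of the 24 on this list was 2-fold apart. The fit over all genes called none of them between temperatures. The fit on protein-coding genes alone called 5 of the 24, where it called 11.4% of genes. NPAT and NCBP2 were higher at 40 °C in that fit, and CPSF1 (a cleavage factor), NELFE (of the negative elongation factor) and SNRPB (of the core Sm ring) were lower. Their median differences were 0.04 and 0.24, with 13 and 15 of 24 higher, beside 0.03 and 0.09 for all genes tested. Over both lines the median was 0.13, and 0.000267 after adjustment for GC content.

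The decay list, 9 genes that degrade or tail histone RNA, had median differences of 0.23 (TPC-1) and 0.60 (B-CPAP). The decapping enzyme DCP2 had ratios of 1.497 and 1.72 and its partner PNRC2 of 1.25 and 1.52. The uridylyl transferase TUT4 had ratios of 1.20 and 1.73, and the exonuclease XRN1 of 1.05 and 1.94. No gene of this list was 2-fold apart on log2(TPM + 1) or called in the fit over all genes. The protein-coding fit called 2 of the 9 higher at 40 °C, PNRC2 (limma adjusted p 0.0129) and DCP2 (0.0459), where it called 7.44% of genes higher. These differences shrank with GC content adjusted. The list's median over both lines went from 0.40 to 0.00297, DCP2 from 0.56 to 0.16, PNRC2 from 0.46 to 0.06 and XRN1 from 0.40 to -0.0013. For 20 general cleavage and polyadenylation genes the medians were 0.02 and 0.25, with 11 and 16 genes higher. RBBP6 (1.20 and 1.88) and the poly(A) polymerase PAPOLA (1.19 and 1.52) had some of the larger ratios. Adjusted for GC content, the difference over both lines went from 0.54 to 0.34 for RBBP6 and from 0.41 to 0.07 for PAPOLA. The protein-coding fit called 3 of the 20, RBBP6 and PAPOLA higher at 40 °C and CPSF1 lower, where it called 11.4% of genes.

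In these libraries, which capture RNA by its poly(A) tail, variant histone genes with ordinary tails were far higher than the members. How much tailless RNA was present was not measured, so total levels cannot be compared. Of 13 such variant genes 11 were tested, and together the 13 stood at 1989, 1865, 1634 and 1656 TPM. H2AFX, which has a stem-loop like the members, stood at 506.8, 404.4, 481.1 and 330.9 TPM, with ratios of 0.798 and 0.688. H2AFZ, the H2A.Z gene, stood at 358.2, 387.0, 413.3 and 558.0 TPM, and the linker histone H1FX at 431.8, 360.4, 223.4 and 166.7 TPM. H2AFY2, a macroH2A gene, measured 65.0, 55.6, 0.0694 and 0 TPM. None of the 11 was 2-fold apart between temperatures on log2(TPM + 1) or called in the fit over all genes. The protein-coding fit called 3 of the 11, H2AFX and H1FX lower at 40 °C and H2AFZ higher, where it called 11.4% of genes. With GC content adjusted, the difference went from -0.43 to -0.17 for H2AFX, from -0.34 to -0.08 for H1FX and from 0.27 to 0.21 for H2AFZ.

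Of 26 genes of DNA replication and the S phase, 12 (TPC-1) and 18 (B-CPAP) were higher at 40 °C, with medians of -0.01 and 0.17. PCNA, the clamp of the replication machinery, measured 231.1, 303.6, 400.3 and 491.8 TPM, while E2F1, a transcription factor of S-phase entry, had ratios of 0.829 and 0.743. In the protein-coding fit 3 of the 26 were called, where 11.4% of genes were. PCNA was higher and E2F1 and CDT1 (a licensing factor of replication) were lower. Between the lines 10 of the 26 were called higher in B-CPAP and 5 lower, where 29.9% of all genes were called higher and 32.8% lower. Among those higher was CCNE1 (cyclin E1) at 4.84, 4.50, 67.9 and 73.2 TPM. Of 21 histone chaperone genes 20 were tested, with medians of -0.03 and 0.12. ATRX was the one 2-fold apart in B-CPAP, at 2.84 and 9.40 TPM, and had a ratio of 0.957 in TPC-1. The protein-coding fit called 1 of the 20, NAP1L1, higher at 40 °C, where it called 11.4% of genes. The share of cells in S phase was not measured, and fewer such cells and less RNA in each cannot be told apart in these bulk libraries.

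As for the libraries as a whole, the estimated depth was 20704722 to 24466576 reads, and mitochondrially encoded genes took 16.8 to 23.9% of TPM, more at 40 °C in both lines. Thyroid markers were present in part: PAX8 stood at 98.9 to 284.4 TPM, while SLC5A5 was at 0 and TG at most 0.746 TPM. NKX2-1 was at 0 in both TPC-1 libraries and measured 8.595 and 7.904 TPM in those of B-CPAP. Among epithelial markers KRT8 stood at 138.9 to 569.8 TPM, and CDH1 at most at 0.0439 TPM. Of 7 immune markers 4 were at 0 in all libraries, and their sum was at most 1.37 TPM. Fibroblast markers summed to 9.17, 9.59, 38.1 and 46.7 TPM, with 4 of 7 at least 2-fold higher in B-CPAP, against 16.6% of all genes tested at each temperature. Their part in the differences between lines was not tested.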

How the data were processed

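RNeasy Plus kits gave the RNA and the TruSeq RNA kit (v2), which does not mark strand, the libraries, per the labels' protocols. The submitters' processing notes list Trimmomatic 0.38 and featureCounts 2.0.0, besides FastQC and MultiQC, with GRCh38 as the genome. No aligner or annotation release is given in the sources used here. The authors deposited TPM for 58884 gene IDs in 4 columns. How the authors counted reads matching several genes is not stated there either, so members with near-identical copies are uncertain.

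Members were found by their names in GENCODE 29. Reads were estimated as TPM times GENCODE 29 exon length, whole within 0.02 of a read; HIST2H2AB was the exception. Exact 95% Clopper-Pearson intervals of TPM ratios came from these reads (scipy 1.17.1). Genes with a mean of at least 1 TPM, 14912 in all and 40 members, were fitted on log2(TPM + 1) with limma 3.58.1 (R 4.3.3), two-sided, with an intensity trend and with Benjamini-Hochberg adjusted p under 0.05 over all of them as the call. Line or temperature was the block, leaving 1 residual degree of freedom, and p-values hold no spread between cultures. A fold change on log2(TPM + 1) understates changes of low genes. The scripts were tested on simulated data.

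Named were the 5 highest members of each class, members 2-fold apart between temperatures, members called by limma, the largest called differences between lines, every HIST3 and HIST4 member, and up to 4 genes of each list by size of change beside SLBP. Named outside this rule, after their values were seen, were CCNE1, H2AFY2, H3F3A, H3F3B, other markers of the cell types, members named by position or by read counts, and members and list genes named by the protein-coding fit. Members and lists were chosen with earlier results of these data known. Alternatives were other pseudocounts, filters and scalings, GC adjustment, protein-coding genes alone, other limma settings and fits without 1 library.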

Additional observations from a re-analysis of the deposited data

How the results depend on the processing

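The call of 0 members between temperatures held under every alternative run except the fit on protein-coding genes alone, which called 11 (11.4% of genes). Between lines that fit called 18 members (72.9% of genes). The others, without leaving out a library, called 8 to 13 members and 28.3 to 72.5% of all genes between lines. Between temperatures those called 0.00 to 8.57% of all genes. Leaving out 1 library, with no block, the calls between lines ran from 2 to 8 and those between temperatures stayed at 0. Counts of members 2-fold apart depended most on the pseudocount. With 0.1 there were 11 in B-CPAP between temperatures, against 8.36% of all genes. With 5 there were 0 in TPC-1 (0.597% of all genes) and 0 in B-CPAP (0.550%). Between lines it was 2 at either temperature, against 18.9% of all genes at 37 °C and 18.3% at 40 °C. With a mean of at least 5 TPM, 12 members were left, and the median in TPC-1 was -0.14. Of these, 0 were 2-fold apart between temperatures in either line, against 0.623% of all such genes in TPC-1 and 1.73% in B-CPAP. Between lines it was 3 at 37 °C (32.4% of all such genes) and 3 at 40 °C (29.8%). Centring each library on its median moved the median of all genes from 0.09 to -0.10 in B-CPAP and that of the members to -0.18. It also changed the split of members 2-fold apart from 4 higher and 1 lower to 2 and 2 in B-CPAP (2 and 2 under quantile normalization too). Between lines at 37 °C the split went from 6 and 7 to 9 and 5. Over all genes the centred shares were 1.63% higher and 1.55% lower in B-CPAP, and 20.2% and 15.9% between lines at 37 °C. No paired analysis by replicate number was possible because the labels number no replicates and each group holds 1 library; line or temperature served as the block, and without it limma called 0 members between temperatures and 10 between lines (50.1% of all genes). Depth limits most members: 36 of 71 stayed under 10 reads in every library, and only 8 reached 100 reads in any.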
